A study of Mus musculus with 26 samples.

Results

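The lineage-traced cells of the P7 mouse brain came from 9 of the 26 microfluidic chips of the series, taken by the time of tamoxifen in their labels. In the txE12.5 group, 6 chips (numbers 5, 13, 14, 15, 16 and 17) held cells from Pdgfra-cre-ERT/RCE mice exposed to tamoxifen at E12.5. In the txP3 group, 3 chips (numbers 18, 19 and 20) held cells of the same line exposed at P3. A cell was a well with at least 1000 molecules outside the mitochondrial, spike-in and transgene entries, which gave 404 txE12.5 and 197 txP3 cells, or 601 of the 1514 cells in all 26 chips (864 of 2496 wells). All 9 chips shared the genotype, a mixed C57BL/6NJ and CD1 background, the age at harvest (P7 by the labels), brain as the tissue and sorting for GFP, and no chip of this line without tamoxifen was analysed here. Tamoxifen was given to the mothers, before birth or when the pups were P3, so that it reached the pups through them.

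In these mice the Pdgfra promoter drives a Cre recombinase that enters the nucleus only with tamoxifen, and a cell that recombines its reporter then keeps GFP, as do its daughters. Pdgfra encodes the receptor for platelet-derived growth factor and marks oligodendrocyte precursor cells (OPCs), which divide, pass through a committed precursor state (COP) and become newly formed oligodendrocytes (NFOL) that begin to make myelin. The same receptor is also made by fibroblast-like vascular and leptomeningeal cells (VLMCs), which lie on vessels and in the meninges and lay down collagen, so that the sort could hold both lineages. The comparison asks whether cells whose line had Pdgfra before birth differ at P7 from cells labelled after birth.

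The chips held 57 to 78 cells and 163880 to 297627 molecules (unique molecular identifiers) each, and the median cell held 2446 to 4149 molecules. Medians per cell did not differ detectably between txE12.5 and txP3 (fold 0.971, two-sided exact permutation test, p = 0.810). GFP molecules were counted on all 9 traced chips, in 21.1 to 42.2% of cells. The column names also carry a sample number, shared by chips 5, 13 and 14, by chips 15, 16 and 17 and by the 3 txP3 chips, so that tamoxifen at P3 and that last sample number cannot be told apart. By the study's methods the txE12.5 chips come from 2 experiments and the txP3 chips from 1, and nothing in the labels says that chips came from separate animals. In every test here n counts chips, so that p-values measure the spread between chips, which may be technical, and not that between experiments.

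Chips 5, 13 and 14 also differed from the other 6 traced chips in sex-linked transcripts. Xist, the RNA that coats the inactive X chromosome, was found in 92.1, 89.1 and 94.1% of cells on chips 5, 13 and 14 and in 0 cells on the other 6 traced chips. The Y-linked genes Ddx3y, Eif2s3y, Kdm5d and Uty gave 0 molecules on chips 5, 13 and 14 and were found in 45.7 to 62.5% of cells on the other 6. No traced cell held both kinds of molecule. Chips 5, 13 and 14 are called the female txE12.5 chips below for these transcripts, and chips 15, 16 and 17 the male txE12.5 chips. The male chips against txP3 make the contrast that does not mix sexes.

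**Figure D1:**
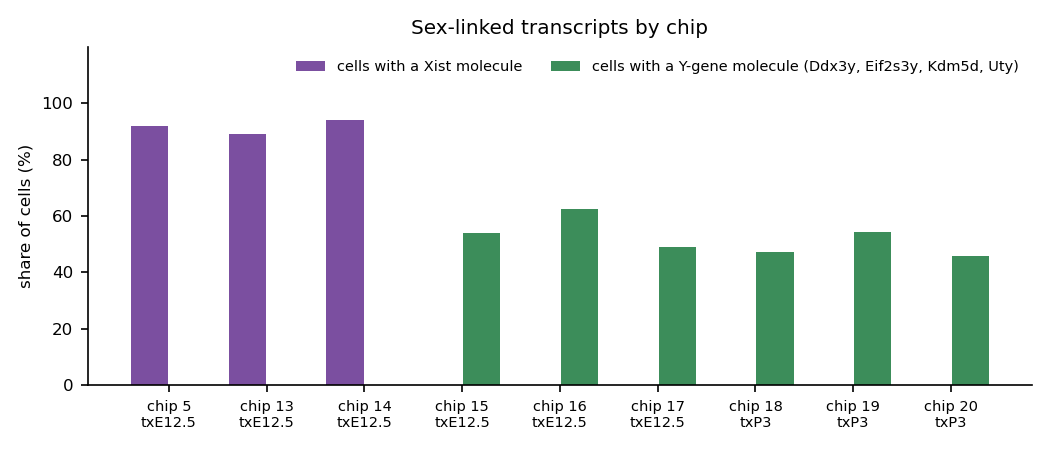
Share of cells (%) on each of the 9 traced chips with at least 1 molecule of Xist (purple bars) or of a Y-linked gene (green bars), with the group under each chip. Xist is found on chips 5, 13 and 14 alone (89.1 to 94.1% of cells), and Y-linked molecules on the other 6 alone (45.7 to 62.5%).

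Most traced cells belonged to the oligodendrocyte lineage at P7, whichever day tamoxifen was given. Clusters were named by marker genes. Of the txE12.5 cells, 175 were resting OPC-like, 34 cycling OPC-like, 25 COP-like, 28 NFOL-like and 32 VLMC-like, against 134, 30, 16, 2 and 5 of the txP3 cells. The resting and cycling OPC-like classes held molecules of all 14 OPC markers (Pdgfra, Olig1, Sox10 and others). The COP-like class held all 14 of its markers, the NFOL-like class 15 of 16 and the VLMC-like class all 20. That does not set the classes apart, since COP-like and NFOL-like cells also held all 14 OPC markers. Summed over both groups, OPC markers were at 16010 and 15010 CPM (molecules scaled to the same total) in resting and cycling OPC-like cells. They were at 9210 CPM in COP-like and 6933 CPM in NFOL-like cells. NFOL and VLMC markers were highest in their own classes (25310 and 65450 CPM). COP markers were at 14160 CPM in COP-like and 15240 CPM in NFOL-like cells. A further 95 txE12.5 and 10 txP3 wells held gene sets of more than 1 lineage (mixed wells). Of the other txE12.5 cells, 12 were in cluster 12 and 3 belonged to other clusters. Resting OPC-like cells also held molecules of all 14 microglia markers. In OPC-like cells, which are compared alone below, these summed to 1066 CPM on chip 13 and 216 CPM on chip 18. They were at 0 on every other traced chip, and 0 of them were abundant enough to be tested. Cluster 0, with 209 traced resting OPC-like cells, scored 1.12 for OPC and 0.729 for microglia markers (mean log2 enrichment). How many cells held these markers was not counted.

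The share of mixed wells was higher in txE12.5. On txE12.5 chips 5, 13, 14, 15, 16 and 17 mixed wells were 15.9, 18.8, 36.8, 28.2, 19.4 and 20.3% of cells, and on txP3 chips 18, 19 and 20 they were 4.29, 1.75 and 8.57%. Every txE12.5 chip lay above every txP3 chip. The means were 23.2% ± 7.81 (SD, n = 6) and 4.87% ± 3.45 (SD, n = 3), a difference of 18.4 percentage points (two-sided exact permutation test, p = 0.0119, the smallest that 6 against 3 chips can give; Benjamini-Hochberg adjusted over 8 shares, 0.0476). With only the female or only the male txE12.5 chips the difference was 18.9 or 17.8 points, and an exact permutation test of 3 against 3 chips cannot give a p below 0.10. Left out 1 at a time, each chip other than chip 5 took the adjusted p above 0.05, with differences of 15.7 to 20.2 points.

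A well counted as mixed where each of 2 gene sets gave 3 or more molecules, spread over 2 or more of its genes. Of the 105 mixed wells, 100 held the precursor set (Olig1, Olig2, Sox10, Ptprz1, Bcan, Lhfpl3, Gpr17, Neu4) together with the meningeal set (Col1a1, Col1a2, Col3a1, Dcn, Lum, Igf2, Ogn, Slc6a13). The other 5 held oligodendrocyte and neuronal genes. The 100 wells with the precursor and meningeal sets had a median of 3524 molecules, against 2833 in the 454 wells with the precursor set alone and 2857 in the 40 with the meningeal set alone. Their median count of precursor-set molecules was 16, against 25 in wells with that set alone, and their median of meningeal-set molecules was 43.5, against 59.5. These medians pool both groups and are mostly of txE12.5 wells. In txP3 the 9 wells with both sets had a median of 80 meningeal-set molecules and the 5 with that set alone 50, the opposite order. A capture site with 2 cells and a single cell with both sets cannot be told apart from these counts. The study's methods describe bright-field images of the capture sites with a control for doublets, and also treated as doublets cells that jointly expressed precursor and VLMC genes or oligodendrocyte and neuronal genes.

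Counted without clustering, wells with the meningeal set were 12.7, 31.3, 39.7, 37.2, 26.4 and 39.0% of cells on the 6 txE12.5 chips in the order above and 5.71, 3.51 and 11.4% on the txP3 chips. The groups did not overlap, and the means of 31.0% ± 10.3 (SD, n = 6) and 6.88% ± 4.09 (SD, n = 3) differed by 24.2 points (two-sided exact permutation test, p = 0.0119, adjusted 0.0476). The adjusted p was likewise above 0.05 without any 1 chip other than chip 5. With every cell thinned to 1000 molecules the shares were 9.52 to 37.3% and 3.51 to 8.57%, again without overlap. The set also reached OPC-like cells in small amounts: 88 of 209 txE12.5 OPC-like cells (42.1%) and 32 of 164 txP3 ones (19.5%) held at least 1 of its molecules. In the later stages of the same lineage the share was 12 of 25 COP-like cells (48.0%) and 13 of 28 NFOL-like cells (46.4%) in txE12.5 and 3 of 16 COP-like cells (18.8%) in txP3. Median depth was 2357 and 2782 molecules in resting OPC-like cells of the 2 groups, 3086 and 3902 in COP-like cells and 4467 in the txE12.5 NFOL-like cells. Resting and cycling OPC-like cells taken apart were at 39.4 and 55.9% in txE12.5 and at 18.7 and 23.3% in txP3, and both txP3 NFOL-like cells were without such a molecule. These shares are over pooled cells, and the source of the molecules was not tested.

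Resting OPC-like cells made up 61.9, 37.5, 36.8, 33.3, 55.6 and 35.6% of the txE12.5 chips and 68.6, 64.9 and 70.0% of the txP3 chips. The chips did not overlap, and the means of 43.4% ± 12.1 (SD, n = 6) and 67.8% ± 2.62 (SD, n = 3) gave an exact permutation p of 0.0238 (adjusted 0.0635), which did not pass the threshold of 0.05. Shares of 1 chip add up to 100%, so that this class and the mixed wells are not independent. With mixed wells left out of the denominator the difference in the share of resting OPC-like cells fell from -24.4 to -15.1 points (exact permutation p = 0.107). Cycling OPC-like cells were 8.39% ± 2.55 and 15.1% ± 6.86 (SD, n = 6 and 3, exact permutation p = 0.0357, adjusted 0.0714) and COP-like cells 6.16% ± 2.59 and 8.71% ± 7.79 (exact permutation p = 0.50). NFOL-like cells ranged from 0 to 11.9% on txE12.5 chips and from 0 to 1.75% on txP3 chips (exact permutation p = 0.0833, adjusted 0.111), and VLMC-like cells from 0 to 16.9% and from 1.43 to 4.29% (p = 0.131 by the same test, adjusted 0.150). Both classes were at 0 on chip 5, the txE12.5 chip with the highest share of resting OPC-like cells.

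**Figure D2:**
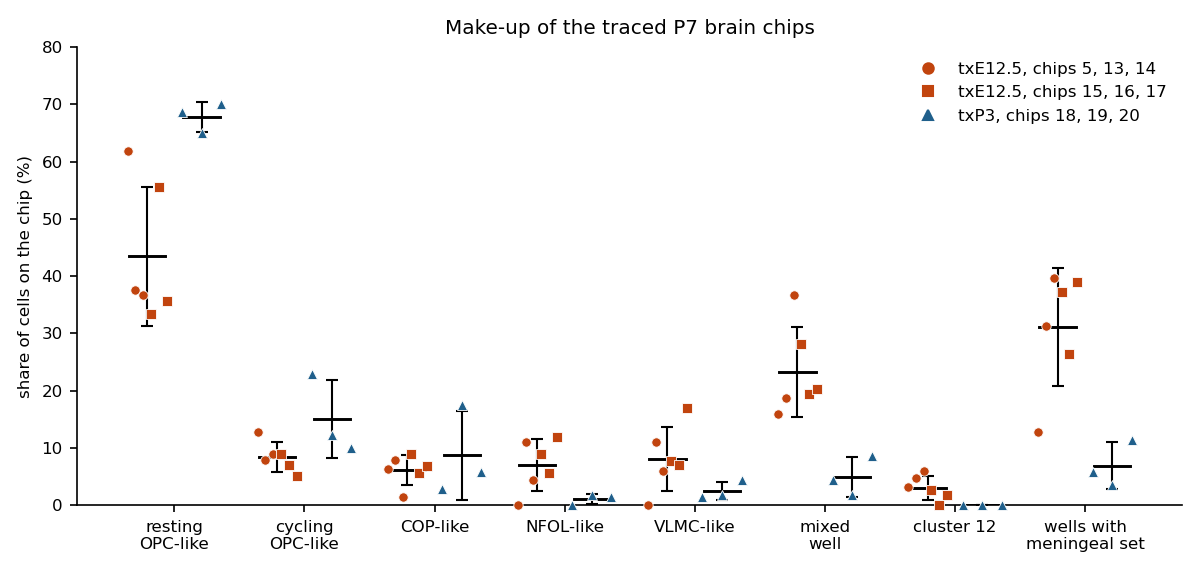
Share of cells (%) on each traced chip in 7 cell classes and in wells with the meningeal set, for txE12.5 (orange, circles for chips 5, 13 and 14 and squares for chips 15, 16 and 17) and txP3 (blue triangles), with the group mean (line) and SD (bar). Mixed wells, wells with the meningeal set and resting OPC-like cells are the 3 shares whose chips do not overlap between groups.

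Cluster 12 held 13 cells over all 26 chips. Of these, 12 were traced cells, all from txE12.5 chips (2.97% of 404, exact 95% binomial interval 1.54 to 5.13%). The 0 of 197 txP3 cells has an exact interval of 0 to 1.86%, which overlaps that one (the limit from a floor of 3 cells is 1.52%). These limits, and all such intervals here, cover counting error only. Every traced cell of the cluster held Cldn5, the claudin that seals endothelial tight junctions, and these cells held molecules of all 13 endothelial markers. It was left without a name because its second-best marker list, the endothelial one, also scored high (mean log2 enrichment 3.03). Red blood cell markers scored highest (5.98), and the haemoglobin genes led its list, with 1313 Hbb-bs molecules in 1 cell of chip 13. By chip its share was 3.18, 4.69, 5.88, 2.56, 0 and 1.69% on txE12.5 chips and 0 on all 3 txP3 chips (mean difference 3.00 points, exact permutation p = 0.0833, adjusted 0.111). Pdgfra was counted in 5 of its 12 traced cells, with 11 molecules.

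With all cells of a chip summed, 40 of 5670 genes tested (0.705%) passed a false discovery rate (FDR) of 0.05 in edgeR's quasi-likelihood test with Benjamini-Hochberg adjustment, 36 of them higher in txE12.5 (0.635%) and 4 lower (0.0705%). In such sums more cells of a type and more RNA per cell cannot be told apart, nor can fewer cells and less RNA. The median log2 fold change over all tested genes was 0.01. Read by the class with the highest level in txE12.5, in CPM (molecules of a gene scaled to the same total in every chip or class) and leaving aside the 3 cells of other clusters, 23 of the 36 higher genes were highest in VLMC-like cells, 7 in NFOL-like cells, 5 in cluster 12 and 1 (Cap1, an actin regulator) in COP-like cells. Of the 23, Htra1, Myl9 and Wls were higher still in those 3 cells. The count rested on single chips: it was 149 without chip 5, 102 without chip 20, 25, 24, 23 and 22 without chips 17, 19, 13 and 14, and 0 without chip 18, where 479 genes had an unadjusted p under 0.05 and all 40 kept their direction.

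Genes of meningeal fibroblasts formed the largest group. Ogn, which encodes the collagen-binding proteoglycan osteoglycin, is on GRCm38 at chr13:49608046-49624501 on the plus strand by GENCODE M21. It stood at 36.6 to 189 CPM on txE12.5 chips (median 70.7) and at 11.9, 0 and 10.1 CPM on chips 18, 19 and 20. All 6 txE12.5 chips were above all 3 txP3 chips, a log2 fold change of 3.56 ± 0.71 (SE, edgeR, FDR 0.0155). Of its 112 txE12.5 molecules, 39 were in VLMC-like cells and 68 in mixed wells.

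The promoters of Ogn, Mag and Cldn5 are shown because each rose in txE12.5 and belongs to 1 of the 3 kinds of gene described, meningeal, myelin and endothelial. Each is the 250 bases before the RefSeq gene start on GRCm38.p6, written 5′ to 3′ on the gene's strand, at chr13:49607765-49608014 (plus strand), chr7:30914923-30915172 (minus) and chr16:18776597-18776846 (plus).
Ogn: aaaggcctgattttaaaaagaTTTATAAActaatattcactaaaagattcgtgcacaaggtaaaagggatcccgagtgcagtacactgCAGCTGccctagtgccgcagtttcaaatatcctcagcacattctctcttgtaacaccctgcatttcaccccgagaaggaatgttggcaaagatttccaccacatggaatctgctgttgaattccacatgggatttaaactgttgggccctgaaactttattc
Mag: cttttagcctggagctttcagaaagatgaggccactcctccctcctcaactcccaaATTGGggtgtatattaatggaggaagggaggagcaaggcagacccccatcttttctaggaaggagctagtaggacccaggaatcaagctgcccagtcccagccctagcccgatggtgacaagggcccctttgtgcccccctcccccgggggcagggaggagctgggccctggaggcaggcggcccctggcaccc
Cldn5: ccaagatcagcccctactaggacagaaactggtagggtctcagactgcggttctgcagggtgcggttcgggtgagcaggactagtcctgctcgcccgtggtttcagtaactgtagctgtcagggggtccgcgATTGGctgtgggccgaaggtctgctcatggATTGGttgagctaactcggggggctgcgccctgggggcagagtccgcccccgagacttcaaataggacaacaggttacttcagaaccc
Capitals mark matches to 4 short motifs searched on both strands in these windows and in 32851 RefSeq promoter windows of the same length. The SOX motif was AACAAT, present in 9.42% of all windows. The TATA box was TATAAA, present in 12.4%. The E-box was CAGCTG, present in 13.0%. The CCAAT box, as its name spells it, was present in 33.8%. In Ogn the capitals are a TATA box at 227 bases before the start with an overlapping match on the other strand at 229, and an E-box at 162. In Mag there is 1 CCAAT box on the opposite strand, at 194 bases before the start. In Cldn5 there are 2 CCAAT boxes on the opposite strand at 118 and 88 bases before the start. A match is a description of the sequence, and none of the 4 motifs was found in all 3 windows.

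Igf2, a growth factor of the fetus that meningeal cells go on making, was at 1196 to 2782 CPM on txE12.5 chips (median 1634) and at 777, 233 and 906 CPM on txP3 chips. The groups did not overlap (log2 fold change 1.59 ± 0.37, edgeR FDR 0.0395). Igfbp2, which binds that factor, was at 567.5 to 1650 CPM (median 1084) against 293, 210 and 491, also without overlap (1.73 ± 0.34, edgeR FDR 0.0155). In txE12.5, VLMC-like cells and mixed wells held 921 and 1384 of the 2470 Igf2 molecules and 491 and 764 of the 1339 Igfbp2 molecules. With VLMC-like cells and every well with the meningeal set left out, an alternative chosen after seeing the data, the log2 fold change of Igfbp2 turned to -0.36 while that of Igf2 was 1.76, and neither passed (edgeR FDR 0.999 and 0.320).

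Vamp5, a vesicle protein, had the lowest adjusted p of all. Its CPM on txE12.5 chips was 97.6 to 179 (median 134) and on txP3 chips 7.93, 4.66 and 35.4 (log2 fold change 3.22 ± 0.47, edgeR FDR 0.00282). Gja1, the gap junction protein connexin 43 that couples meningeal cells and astrocytes, was at 238 to 446 CPM (median 284) against 39.6, 28.0 and 152 (2.22 ± 0.40, edgeR FDR 0.00948). Both genes lay apart on all chips, and most of their molecules were in VLMC-like cells and mixed wells (71 and 101 of 180 for Vamp5, 142 and 224 of 405 for Gja1). Pltp, a phospholipid carrier, and Anxa5, a membrane-binding annexin, rose as well (log2 2.41 and 2.33, edgeR FDR 0.00948 for both), as did the proteases Htra1 (3.14) and Ctsk (1.91), the basement membrane collagen Col4a2 (1.87) and the collagen chaperone Serpinh1 (1.86), with FDR values in edgeR of 0.0141 to 0.0374. A2m, a protease inhibitor, had 68 molecules on the txE12.5 chips and 0 on the txP3 chips, at least 11.7-fold higher against a floor of 3 molecules over the group (edgeR FDR 0.0165). Vamp5, Htra1 and A2m, with 10, 5 and 0 txP3 molecules, were abundant enough to be tested through their txE12.5 chips alone.

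As a list, meningeal matrix and growth factor binding genes had 5 of 22 tested members higher (Ogn, Fstl1, Sparcl1, Igf2, Igfbp2) and 0 lower, with a median log2 fold change of 1.46. The calls other than that of Ogn stand beside 0.635% of all tested genes called higher. Ogn, with 5 molecules on the txP3 chips, was abundant enough to be tested through its txE12.5 chips alone, here and among the VLMC markers. Its call is therefore not set against that share. The summed level of the matrix list was 4906 to 11830 CPM on txE12.5 chips and 1626 to 4838 CPM on txP3 chips. Of the VLMC markers, 2 of 19 passed (Igf2 and Ogn) although all 19 had positive fold changes (median 1.46), and their sums overlapped (3332 to 21670 CPM against 857 to 11020). The chief fibroblast collagens did not pass: Col1a1 had a log2 fold change of 1.69 (edgeR FDR 0.0977) and Col1a2 1.29 (FDR 0.218), with chip 20 at 314 and 1002 CPM inside the txE12.5 range. Ptgds, which makes prostaglandin D in the meninges, ran from 18.3 to 8864 CPM within txE12.5 and from 9.32 to 5886 CPM within txP3, so that no difference was detectable (0.77, edgeR FDR 0.906).

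Some myelin genes rose in txE12.5, 4 of 21 tested. The calls other than that of Mag stand beside 0.635% of all tested genes called higher. Mbp, the basic protein that compacts the myelin sheath, was at 506.5 to 1596 CPM (median 1038) against 83.2, 442.5 and 293.5 (2.02 ± 0.41, edgeR FDR 0.0159). The groups did not overlap, with chip 5 the lowest txE12.5 chip and chip 19 the highest txP3 chip.

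Mag, the myelin-associated glycoprotein that touches the axon, whose promoter is printed above, was at 30.5, 192, 134, 53.3, 73.4 and 137.5 CPM on the txE12.5 chips and at 0, 32.6 and 10.1 CPM on the txP3 chips (2.99 ± 0.66, edgeR FDR 0.0314). Chip 5 lay below chip 19, so that its groups overlapped. Nfasc, which anchors myelin beside the node, overlapped in the same way (1.73 ± 0.39, edgeR FDR 0.0357). Cdk18, a kinase highest in NFOL-like cells, had 54 molecules against 0, at least 9.27-fold higher (edgeR FDR 0.0185). Cdk18 was abundant enough to be tested through its txE12.5 chips alone. NFOL-like cells, 28 of 404, held 723 of the 1346 Mbp molecules of txE12.5.

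Of 21 tested genes of myelin proteins and lipid enzymes, 4 were higher (Mbp, Mag and Nfasc among them) and 0 lower, with a median log2 fold change of 1.01. Mag, with 9 molecules on the txP3 chips, was abundant enough to be tested through its txE12.5 chips alone, so that its call is not set against the share of all tested genes. Of the 21, 16 had positive fold changes, 12 of them with an unadjusted p under 0.05, and 2 were lower at that level. Pllp, plasmolipin of the myelin membrane, was lower on each txE12.5 chip than on any txP3 chip, at 403 to 698 CPM against 1038, 955 and 810, but did not pass (-0.58, edgeR FDR 0.338). Of all tested genes, 4.66% had chips that did not overlap between groups, and 10.1% had an unadjusted p under 0.05. Of 11 COP markers tested, 0 passed (median log2 fold change 0.57). Of the 11, 10 had positive fold changes, 5 of them with an unadjusted p under 0.05, and 0 were lower at that level. Gpr17, a receptor made at the step from precursor to oligodendrocyte, was at 1841 to 2648 CPM against 1680, 2949 and 1377. With OPC-like, COP-like and NFOL-like cells alone, an alternative chosen after seeing the data, 11 of 4047 genes (0.272%) passed, among them Mbp (log2 2.30, edgeR FDR 0.00953), Mag (3.16), Nfasc (1.95) and Myrf (2.51), the transcription factor that switches on myelin genes.

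Endothelial genes were counted on txE12.5 chips for the most part. Cldn5 (GRCm38 chr16:18776847-18778262), whose promoter is printed above, was at 134, 102, 97.4, 121, 5.24 and 47.8 CPM on the 6 txE12.5 chips and at 0 on all txP3 chips. With 112 molecules against 0 it was at least 19.2-fold higher (edgeR FDR 0.00859), and 107 of the 112 were in cluster 12. Slco1c1, the thyroid hormone carrier of brain vessels, had 81 molecules against 0, at least 13.9-fold higher (edgeR FDR 0.00948), 63 of them in cluster 12. Slco1c1 too was abundant enough to be tested through its txE12.5 chips alone. Itm2a, made by endothelial and meningeal cells, was at 397 to 749 CPM (median 654) against 139, 60.6 and 268 (2.07 ± 0.35, edgeR FDR 0.00859), and its molecules were spread over mixed wells (350 of 823), VLMC-like cells (244) and cluster 12 (154). Of 13 endothelial markers 3 were abundant enough to be tested, Cldn5 through its txE12.5 chips alone. Itm2a passed and Ramp2 did not (0.98, edgeR FDR 0.161), where 0.635% of all tested genes were called higher. The call of Cldn5 is not set against that share, since it was tested only through the group where it is high.

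**Figure D3:**
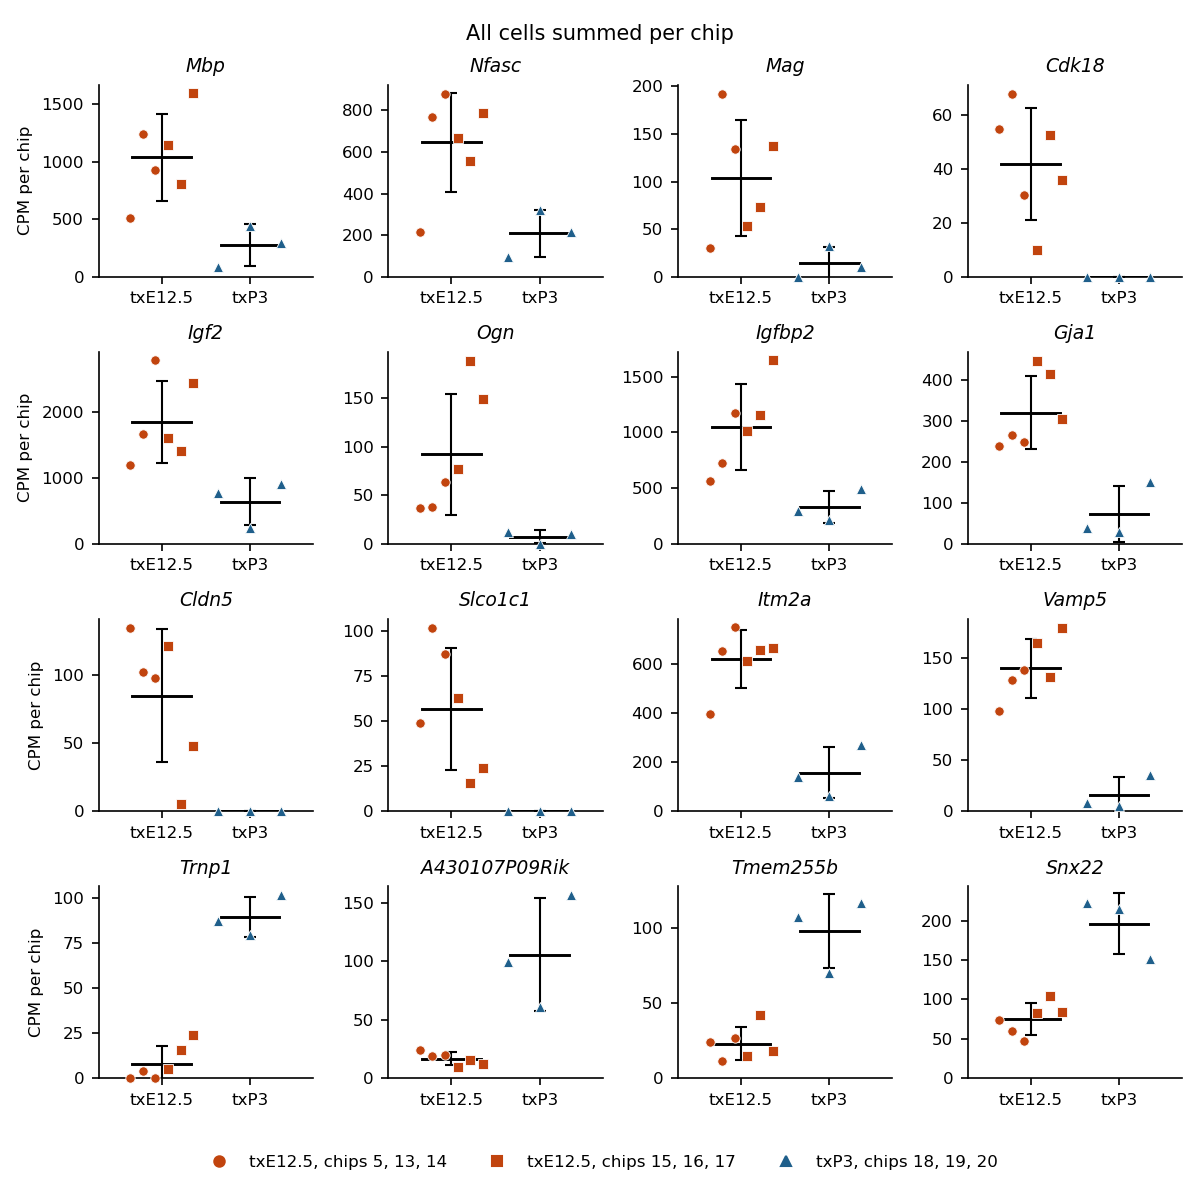
Level (CPM, all cells of a chip summed) of 16 genes on each traced chip, for txE12.5 (orange, circles for chips 5, 13 and 14 and squares for chips 15, 16 and 17) and txP3 (blue triangles), with the group mean (line) and SD (bar). The axes start at 0 and differ between panels, and the upper 12 genes are higher in txE12.5 and the lowest 4 (Trnp1, A430107P09Rik, Tmem255b and Snx22) lower.

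**Figure D4:**
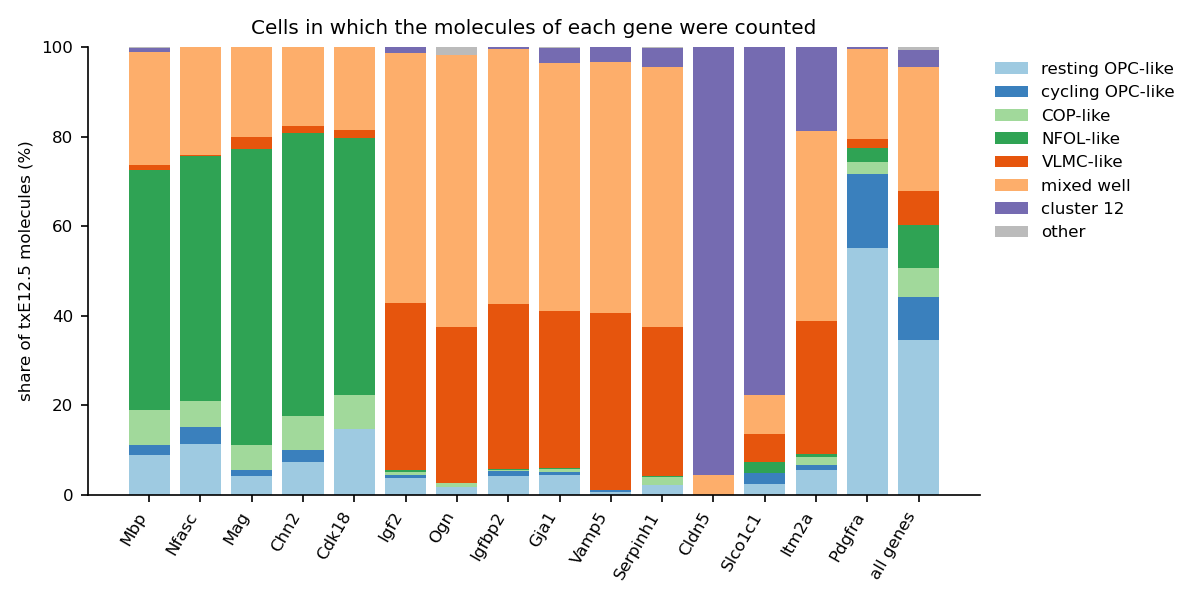
Share (%) of the molecules of each of 15 genes that was counted in each cell class of txE12.5, with all genes in the last bar. Mixed wells held 27.7% and resting OPC-like cells 34.5% of all txE12.5 molecules, while NFOL-like cells (9.52% of all molecules) held 53.7% of Mbp and cluster 12 (3.59%) held 95.5% of Cldn5.

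Of the 4 genes that fell in txE12.5, A430107P09Rik, Snx22 and Tmem255b were highest in COP-like cells of that group and Trnp1 in resting OPC-like cells. In txP3, A430107P09Rik and Snx22 were again highest in COP-like cells. Tmem255b was there at 132 CPM in resting OPC-like and 58.6 CPM in COP-like cells. Trnp1 was at 120 CPM in cycling and 94.9 CPM in resting OPC-like cells of txP3. Trnp1, a nuclear protein known from cortical progenitors (GRCm38 chr4:133491100-133498550), was at 0, 3.77, 0, 4.85, 15.7 and 23.9 CPM on the txE12.5 chips and at 87.2, 79.2 and 101 CPM on the txP3 chips. The groups lay far apart with 9 molecules against 59 (log2 fold change -3.47 ± 0.63, edgeR FDR 0.00948). Tmem255b was at 11.3 to 41.9 CPM against 107, 69.9 and 116 (-2.03 ± 0.42, edgeR FDR 0.0169) and Snx22, a sorting nexin, at 47.0 to 105 CPM against 222, 214 and 152 (-1.34 ± 0.28, edgeR FDR 0.0210). The transcript A430107P09Rik was at 9.70 to 24.4 CPM against 99.1, 60.6 and 157 (-2.53 ± 0.43, edgeR FDR 0.00859). Trnp1, Tmem255b and A430107P09Rik were abundant enough to be tested through their txP3 chips alone. None of these 4 genes overlapped between groups, and 38 of the 59 txP3 molecules of Trnp1 and 46 of the 69 of A430107P09Rik were in resting OPC-like cells, a class that held 60.2% of all txP3 molecules.

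The OPC marker genes did not pass. Pdgfra was at 1282 to 2667 CPM on txE12.5 chips (median 1487) and at 2421, 2865 and 2510 CPM on txP3 chips (-0.57 ± 0.23, edgeR FDR 0.355), and 0 of 14 OPC markers were called, with a median log2 fold change of -0.44. Of the 14, 11 had negative fold changes, 6 of them with an unadjusted p under 0.05, and 0 were higher at that level. Their summed level overlapped, at 8171 to 15740 CPM against 12960 to 16360. The lists for DNA replication (11 tested, median -0.49), mitosis (23 tested, -0.34) and cholesterol synthesis (18 tested, -0.15) had 0 calls, although the cholesterol genes summed to 2275 to 2687 CPM on txE12.5 chips and to 2874 to 2976 CPM on txP3 chips, without overlap. Fos and Egr1, early genes that respond to stimulation and to tissue dissociation, had log2 fold changes of 1.13 (edgeR FDR 0.270) and -0.61 (FDR 0.553). Of 15 early genes tested 0 passed and 14 had positive fold changes (median 0.65), Egr1 being the exception.

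The male and the female txE12.5 chips were then compared separately with the same 3 txP3 chips. With the male chips, 74 of 4849 genes passed (1.53%), and all 33 of the 40 genes that could be tested there kept their direction, 27 of them called. With the female chips, 13 of 5493 passed (0.237%), 8 of the 33 testable genes among them and all 33 in the same direction. Col4a2, Pltp, Trnp1 and Vamp5 passed in both. Mbp had log2 fold changes of 1.81 for the female chips (edgeR FDR 0.152) and 2.20 for the male chips (FDR 0.00609). Ogn passed for the male chips (4.15, edgeR FDR 0.00189) and was too sparse to be tested for the female ones. Whether the male and female chips differ from each other was not tested. Both fits share the txP3 chips, so they are not independent of each other.

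Leaving mixed wells out cut the calls to 12 of 4854 (0.247%), 9 of them among the 40. Mbp, Cldn5, Slco1c1, Itm2a, Vamp5, Gja1, Sepp1 and A430107P09Rik were among those 9. With mixed wells left out 32 of the 40 genes could be tested, all in the same direction.

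OPC-like cells were then compared alone, resting and cycling ones together and mixed wells left out, which asks whether precursors reached from E12.5 differ from those labelled at P3. Few single genes passed, and with so few txP3 chips that does not show that the precursors were alike. Of 3412 genes tested, 2 passed (0.0586%), Xist and its antisense partner Tsix, both from the female chips, while DESeq2 called 0 (243 genes with an unadjusted p under 0.05). Both were called in each of the 6 fits with 1 chip left out that could test them. Without chip 5, 13 or 14 they fell under the filter on low counts, and edgeR then called Ptgds alone, 0 and 0 genes (120 and 118 with an unadjusted p under 0.05 without chips 13 and 14), while it called Mbp beside both without chip 19 and Igf2 and Ptgds beside both without chip 20. Xist was at 2483, 2029 and 2452 CPM on chips 5, 13 and 14 and at 0 on the other 6 (edgeR FDR 0.00971). With the female txE12.5 chips alone 4 genes passed (0.121%: Xist, Tsix, Eif2s3y and Trnp1), and with the male chips 2 (0.0633%: Ptgds and Chadl). In edgeR 142 genes (4.16%) had an unadjusted p under 0.05 and 71 (2.08%) had chips that did not overlap, and the median log2 fold change was 0.02.

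No precursor gene passed in the OPC-like cells. Pdgfra was at 2131 to 3225 CPM in txE12.5 OPC-like cells (median 2614) and at 2591, 3489 and 3152 CPM in txP3 ones, so that the groups overlapped in part (-0.19 ± 0.20, edgeR FDR 0.9995). Serpine2, a protease inhibitor that marks precursors, had a log2 fold change of 0.28 ± 0.19 and Top2a, a topoisomerase of dividing cells, -0.08 ± 0.33. Of 14 OPC markers, 22 proteoglycan and synaptic adhesion genes and 19 oligodendrocyte transcription factors tested, 0 were called, with median log2 fold changes of -0.12, 0.03 and -0.16. At an unadjusted p under 0.05 in edgeR, 1 OPC marker was lower and 0 higher. Of the transcription factors 2 were lower and 1 higher at that level, and 3 had chips without overlap. Their log2 fold changes ran from -1.17 to 0.77.

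Genes of electrical signalling, by which precursors receive synapses from neurons, gave 0 calls as well, where 0.0586% of all tested genes were called. At so low a share, 0 calls in lists this short does not show that these genes were alike. There were 8 tested glutamate receptor genes (median log2 fold change -0.03), 4 GABA receptor genes (0.28), 11 genes of the potassium channel list (-0.08), which also took in the antisense RNA Kcnq1ot1, and 7 sodium and calcium channel genes (-0.13). At an unadjusted p under 0.05 in edgeR, 1 gene of the potassium channel list was higher and 2 lower, and 0 of the other lists. Kcnip3 of that list did not overlap, at 218.5 to 376 CPM against 532, 423 and 404 (-0.52 ± 0.25, edgeR FDR 0.9995). Summed glutamate receptor level was 2272 to 3430 CPM against 2641 to 3469 CPM, and the summed level of the potassium channel list, Kcnq1ot1 included, 1825 to 3071 against 2259 to 2701. Gria2, the subunit that keeps AMPA receptors closed to calcium, was at 666 to 1630 CPM against 1203, 1302 and 1105 (0.05 ± 0.24). No dorsal forebrain transcription factor was abundant enough to be tested, and the 2 ventral ones tested, of 9 with molecules, did not pass.

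Id2 and Ptgds came closest among the genes not linked to sex. Id2, an inhibitor of basic helix-loop-helix factors that holds back oligodendrocyte differentiation (GRCm38 chr12:25093799-25097140), was at 196, 132, 250, 209, 266 and 273 CPM on txE12.5 chips and at 608, 469 and 425 CPM on txP3 chips. The groups did not overlap (-1.17 ± 0.26), and its FDR of 0.0755 in edgeR missed the threshold. It passed with no filter on low counts (edgeR FDR 0.0131) and with cells thinned to 1000 molecules (FDR 0.0359). It did not pass in DESeq2 (FDR 0.339), with the female or male chips alone (edgeR FDR 0.108 and 0.394) or in any of the 9 fits with 1 chip left out (up to 0.998). It also passed where OPC-like cells with any molecule of the meningeal set were left out, an alternative chosen after seeing the data (edgeR FDR 0.0315 among 1547 genes), and in the lineage cells together (-1.25, FDR 0.0291). Ptgds was at 17.1, 37.7, 134, 195, 133 and 85.4 CPM against 0, 0 and 14.2 (4.33 ± 0.97, edgeR FDR 0.0755), and passed with the male txE12.5 chips alone (4.83, FDR 0.00908). These are 54 molecules against 2, a ratio of 24.4 per molecule sequenced with a 95% counting interval of 6.45 to 207. With so few txP3 molecules, Ptgds was abundant enough to be tested through its txE12.5 chips alone. It could be tested in 6 of the 9 fits with 1 chip left out. In txE12.5, VLMC-like cells and mixed wells held 2280 and 2255 of the 4601 Ptgds molecules, and their part in the OPC-like difference was not tested.

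Inside the OPC-like class 0 of 12 tested myelin genes passed, 9 of them with positive fold changes (median 0.33). Mbp was at 142.5 to 444 CPM (median 244) against 63.1, 163 and 63.7 (1.49 ± 0.37, edgeR FDR 0.199). Its chips overlapped, while those of Nfasc did not, at 171 to 320 CPM against 108, 169 and 127.5 (0.82 ± 0.31, edgeR FDR 0.9995). Pllp lay the other way, also without overlap, at 383.9 to 794 CPM against 1113, 846 and 829 (-0.41 ± 0.24, edgeR FDR 0.9995). All 7 tested COP markers had positive fold changes (median 0.57), with Gpr17 at 0.51 and Bcas1, an early myelinating marker, at 0.57, and 0 passed. Of the 7, 4 had an unadjusted p under 0.05 in edgeR, as had 4.16% of all tested genes. Egr1 was at 34.2 to 189 CPM against 171, 273 and 326 (-1.07 ± 0.34, edgeR FDR 0.779), the only negative 1 of 6 early genes tested here (median 0.09), of which 0 passed. Trnp1, too sparse to be tested here, had 8 molecules on the txE12.5 chips and 52 on the txP3 chips, at 0 to 51.3 CPM and 81.1 to 127.5 CPM, without overlap.

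**Figure D5:**
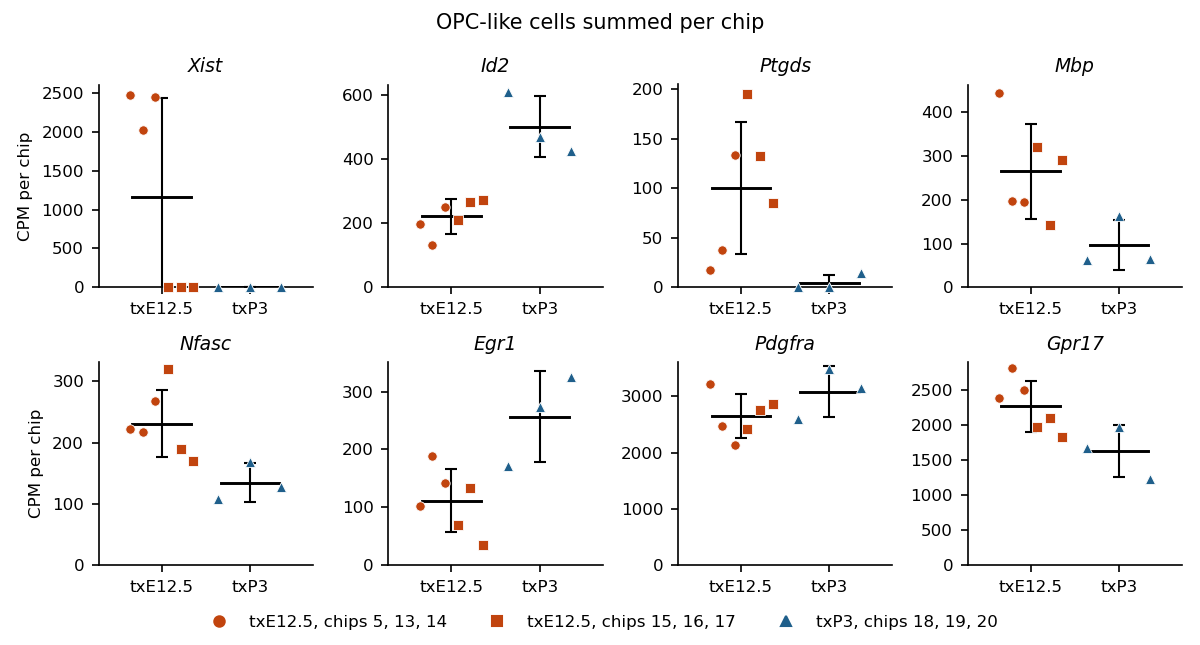
Level (CPM, OPC-like cells of a chip summed) of 8 genes on each traced chip, for txE12.5 (orange, circles for chips 5, 13 and 14 and squares for chips 15, 16 and 17) and txP3 (blue triangles), with the group mean (line) and SD (bar). Xist is at 0 on 6 chips, Id2 is lower on every txE12.5 chip (132 to 273 CPM) than on any txP3 chip (425 to 608), and Pdgfra and Gpr17 overlap.

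COP-like cells could not be compared gene by gene, because only chip 19 of txP3 held at least 5 of them. For the P7 brain of the knock-in Pdgfra-H2BGFP line, in which every cell with Pdgfra glows without tamoxifen, values are given side by side without a test, since its 2 chips come from another line. There resting OPC-like cells were 61.0 and 59.2% of 59 and 49 cells, mixed wells 3.39 and 0%, wells with the meningeal set 6.78 and 10.2%, and cluster 12 was at 0 on both.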

How the data were processed

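Single cells were captured on Fluidigm C1 chips of 96 sites and their polyA RNA was read by STRT-seq with molecular identifiers. The authors mapped reads to the mouse genome (mm10 in the submitters' processing notes) and deposited molecule counts per gene and well, which are whole numbers without normalization, one table per chip. Which aligner made these counts is not given in the sources used here. Wells with at least 1000 molecules outside mitochondrial, spike-in and transgene entries were kept as cells, 57 to 78 per traced chip, and 24341 genes were read. A count of 163880 to 297627 molecules per chip sets the precision, and no cell name occurred on more than 1 chip.

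All 26 chips were clustered together in scanpy 1.11.5 (Leiden, leidenalg 0.10.2, 2000 variable genes, 30 principal components, 15 neighbours, resolution 1.0, cells scaled to 10000 molecules), giving 13 clusters named by markers. Mixed wells were set apart by gene sets, and no other doublet caller was run. The neuronal set of that rule was narrowed to Stmn2, Snap25, Syt1, Nefl, Gad1, Gad2 and Slc17a6, and the oligodendrocyte set included Mbp, Mag, Mog, Cldn11, Mobp and Ermn. A gene that passed the rule for named genes is not reported here. The narrowing was chosen after seeing the data. Molecules were summed per chip over all cells, and over OPC-like cells of chips with at least 5 of them, and the groups compared in edgeR 4.0.16 (TMM, filterByExpr, quasi-likelihood F test, Benjamini-Hochberg adjustment, FDR 0.05) in R 4.3.3, with DESeq2 1.42.0 as an alternative. Shares were compared by two-sided exact permutation tests over the 84 ways to split 6 and 3 chips. Fold changes are txE12.5 over txP3, and SD and SE are as named. Chips were grouped by their labels. The tables of the txE12.5 chips carry E13.5 in their names where the labels say E12.5, and the labels were used. Chip 9, whose labels conflict, was put in no group. The genes named were the 12 largest changes in each direction among called genes without overlap, called list members (up to 6 a list), the 3 most abundant genes of each list, and sex genes, Pdgfra, Col1a1, Resp18, Egr1, Fos and Top2a. Myrf, Ctsk, Serpinh1, Cap1, Sepp1, Wls and Chadl were named beside them after their values were seen. The members and gene lists were chosen with earlier results of these data known. Gene positions came from GENCODE M21 (135 of 138 named genes).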

Additional observations from a re-analysis of the deposited data

Results flagged for a closer look

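Pllp, which encodes plasmolipin of the myelin membrane, was at 383.9 CPM in OPC-like cells of chip 5, while the median of the 6 txE12.5 chips was 751 CPM. The gap from chip 5 to the nearest chip was 0.767 of the whole range, above Dixon's 95% critical value for 6 values. Of 80 groups of values examined in this way 1 passed, and chance alone passes about 1 in 20.

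Molecules assigned to the cre transgene, which no comparison used, were counted in the traced chips. There were 37 in the 601 cells, on 8 of the 9 chips, against 0 in the 913 cells of the other 17 chips.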

How the results depend on the processing

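No paired analysis was possible because the groups share no chip numbers. Depth (163880 to 297627 molecules a chip), 6 against 3 chips and the match of txP3 to 1 sample number limit every comparison. COP-like cells were not fitted, with 1 txP3 chip of at least 5 such cells. Over the 29 called named genes, 377 of 495 alternative values kept direction and call, 115 lost the call and 3 reversed. Of 796 values of uncalled genes 706 kept both, 51 gained a call and 39 reversed. The cause of these changes was not tested.

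In all cells, edgeR called 40 genes, 13 with the female and 74 with the male txE12.5 chips, 12 without mixed wells, 207 with no filter on low counts, 25 in wells of at least 2000 molecules, 0 to 149 leaving out 1 chip (0 without chip 18, 479 at an unadjusted p under 0.05), and, in alternatives added after seeing the data, 11 in OPC-like, COP-like and NFOL-like cells alone and 23 without VLMC-like cells and wells with the meningeal set. DESeq2 called 56. In OPC-like cells the 2 calls became 0 in DESeq2 (243 at an unadjusted p under 0.05), 4 with the female chips, 7 with no filter and 0 to 4 leaving out 1 chip (0 without chip 13 or 14, where Xist and Tsix were too sparse to be tested).

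The difference in mixed wells (18.4 points, percent of cells) lost its call with fewer chips, at 18.9 (female) and 17.8 (male), and in wells of at least 2000 molecules, at 21.1, and without any 1 chip other than chip 5, at 15.7 to 20.2. With fewer chips the smallest p is larger. That in wells with the meningeal set lost it in the same fits, at 21.0, 27.3 and 25.9 and, without any 1 chip other than chip 5, at 22.4 to 26.4, and kept it without chip 5, at 27.8. Resting OPC-like cells passed with the traced chips clustered alone (-29.8), after thinning to 1000 molecules (-29.5) and without chip 5 (-28.1 to -22.4 leaving out 1 chip), and cycling cells ran from -9.18 to -2.75 (-7.52, past the threshold, without chip 5). COP-like cells reversed at resolution 0.5 (3.35), after thinning (2.95) and leaving out 1 chip (-5.47 to 1.87, the last without chip 19). Molecules per cell (log2) reversed with the female chips (0.17) and ran from -0.18 to 0.08 leaving out 1 chip.

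Reversed log2 fold changes in all cells were, for the male chips, Ddx3y 0.62, Eif2s3y 0.47, Uty 0.86 and Resp18 0.33; for the female chips, Ptgds -0.72; in OPC-like, COP-like and NFOL-like cells alone, Igfbp2 -0.26, Sparcl1 -0.17, Resp18 0.21 and Serpine2 0.080; without the meningeal wells, Igfbp2 -0.36, Resp18 0.21 and Serpine2 0.052; Resp18 0.079 without mixed wells and Serpine2 0.071 after thinning. Leaving out 1 chip gave Gpr17 -0.035 to 0.53, Resp18 -0.25 to 0.44, Serpine2 -0.16 to 0.012 and Uty -0.72 to 0.24. In OPC-like cells they were, for the male chips, Ddx3y 0.53, Eif2s3y 0.80, Fos -0.25 and Ptprz1 -0.083; for the female chips, Resp18 -0.11; with no filter, Fos -0.020 and Ptprz1 -0.051; Fos -0.015 in DESeq2; Ptprz1 -0.026 without cycling cells and -0.060 after thinning; and Top2a 0.14 in wells of at least 2000 molecules. Leaving out 1 chip gave Fos -0.26 to 0.29, Ptprz1 -0.019 to 0.11 and Top2a -0.33 to 0.28.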

Other observations

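Resting OPC-like cells came from clusters 0 and 3, and their split differed between chips. In txE12.5 the cells of cluster 0 and cluster 3 numbered 8 and 31 on chip 5, 11 and 13 on chip 13 and 17 and 8 on chip 14, but 25 and 1, 34 and 6, and 19 and 2 on the male chips 15, 16 and 17. On txP3 chips 18, 19 and 20 they were 37 and 11, 18 and 19, and 40 and 9. The split was not compared between groups, since a chip can set it.

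Y-linked and Xist molecules were both counted on the P7 brain chips of the Pdgfra-H2BGFP line, with Xist in 39.0 and 36.7% of cells and Y-linked molecules in 22.0 and 26.5%, where each traced chip held only 1 kind.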
